A study of Mus musculus with 9 samples.

Results

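The Kruppel-like factor (KLF) family was examined through 10 genes, Klf2, Klf3, Klf4, Klf5, Klf6, Klf7, Klf9, Klf10, Klf11 and Klf13, named with earlier results of these data known, out of 22180 genes with a probe set carrying 1 gene symbol. Of 17 genes named Klf that were measured, the other 7 (Klf1, Klf8, Klf12, Klf14, Klf15, Klf16 and Klf17) are counted below with the SP genes. All 10 had such a probe set, and a gene with several was read from the one whose mean over the 9 arrays was highest. None of the 10 lay among the lowest 30% of genes by mean value, so no member was lost to a filter on low signal. KLF proteins are transcription factors that bind GC-rich and CACCC-containing DNA through zinc fingers at their carboxyl end. They are grouped by the partners of their variable amino-terminal parts: KLF2, KLF4, KLF5, KLF6 and KLF7 act largely as activators that recruit acetyltransferases, KLF3 is a repressor that binds CtBP, and KLF9, KLF10, KLF11 and KLF13 bind the Sin3 corepressor. Several of their genes respond within minutes to hours to serum, growth factors, hormones or stress, and in fibroblasts the family takes part in growth arrest, wound responses and TGF-beta signalling.

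Expression was measured on 9 one-colour arrays in hMLKL1-181-2Fv-NIH3T3, an NIH3T3 mouse fibroblast line. Its name gives a stretch of human MLKL, the membrane-permeabilizing protein of necroptosis, joined to Fv domains, which the compound B/B brings together. The 3 control arrays carry the label of control treatment only, 3 arrays come from annexin V-positive cells sorted after 1 h in 50 nM B/B, and 3 from cells treated and sorted likewise that then had 6 h of washout. Annexin V marks cells whose surface exposes phosphatidylserine, a lipid otherwise held on the inner leaflet. The series design gives 3000 nM for the washout without naming the compound, and it is silent on sorting and harvest time of the control cells. In any difference from control, B/B, sorting and time in culture therefore cannot be told apart. The washout group adds removal of B/B, the unnamed compound at 3000 nM and 6 h more in culture. These cannot be told apart either, whether washout is set against 1 h or against control. All groups share the fusion protein's cell line, whether it is 1 clone is not stated, and no group of sorted cells without B/B was analysed here.

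The median log2 value of an array was 4.60 to 4.68, and arrays correlated across genes, which are not independent replicates, at 0.9977 to 0.9985 within a group and at 0.9901 to 0.9976 between groups. Of 9 fibroblast markers, all lay above the lowest 30% of genes, and their summed log2 level was 91.7 to 91.95 in control, 91.94 to 92.17 at 1 h and 88.03 to 88.16 after washout. Of 6 leukocyte markers 5 lay in the lowest 30%, as did 2 of 7 endothelial and 1 of 6 epithelial markers, and the pan-leukocyte gene Ptprc read at most 3.48. The fibroblast markers did not fall as one. After washout, 6 of the 9 were called lower than control and 1 higher (limma, Benjamini-Hochberg adjusted p under 0.05), beside 11.7% and 14.5% of all genes. Pdgfrb fell most, to -1.36 (adjusted p 1.1e-07), and Pdgfra rose, to 0.68 (adjusted p 8.5e-06). Vim, at -0.01, and Fn1, at 0.06, were not called. The part of these changes in the KLF results after washout was not tested. Since values are per amount of RNA, fewer cells of a kind and less RNA per cell cannot be told apart. Nothing in the labels gives samples of 1 group as separate cultures, and p-values then measure only the spread between these samples, which may be technical.

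By limma's F-test over control, 1 h and washout, all 10 KLF genes differed (p adjusted after Benjamini-Hochberg from 2.1e-08 for Klf10 to 0.0079 for Klf13), beside 29.5% of all genes tested. The members did not move as one. Klf2, Klf4 and Klf6 were higher at 1 h and lower after washout than at 1 h, a pattern of 0.69% of all genes. Klf9 and Klf10 were lower at 1 h and lower again after washout, as were 0.261% of all genes, and 0 members fell at 1 h and rose over washout with both steps past the threshold, a pattern of 1.18%. Klf5 and Klf11 were not called at 1 h and fell over washout, and Klf3, Klf7 and Klf13 were not called at 1 h and rose over washout, patterns of 11% and 15.3% of all genes.

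**Figure D1:**
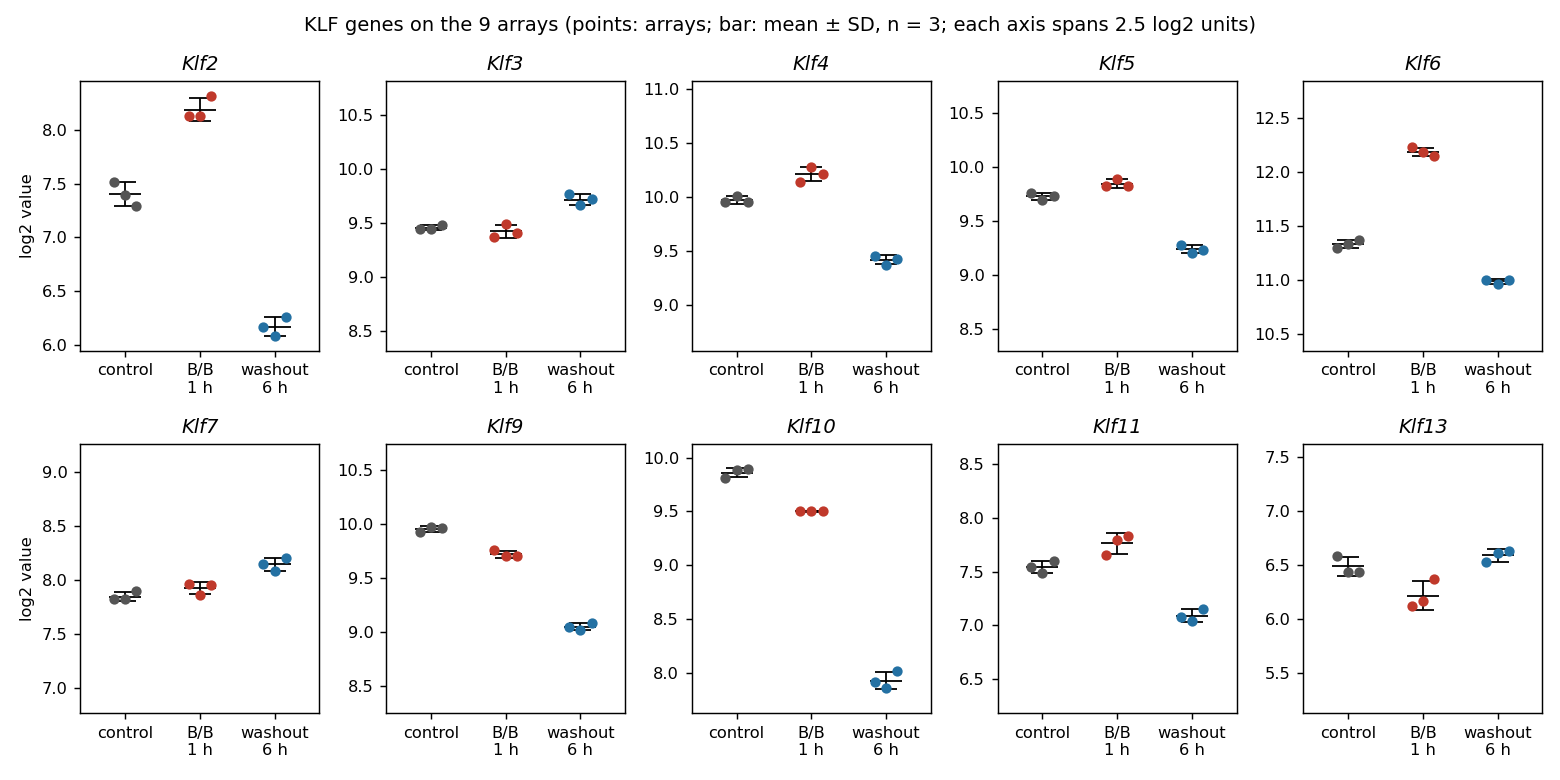
The log2 value of each KLF gene on each array (y axis, 2.5 log2 units in every panel) in control, B/B 1 h and washout samples (x axis), with points for arrays and bars for mean ± SD, n = 3 per group. Klf2 and Klf6 peak at 1 h and end below control, Klf9 and Klf10 step down at 1 h and again after washout, and Klf3 and Klf7 end above control.

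The bases upstream of the start sites are shown for the members called higher at 1 h, Klf2, Klf4 and Klf6, and for Klf9, which was called lower. RefSeq promoters of assembly GRCm38.p6 were at hand for 8 of the 10 genes. They were lacking for Klf5 and for Klf10, the other member called lower at 1 h. The 250 bases before the start are printed 5′ to 3′ on the gene's strand. Capitals mark 3 motifs searched on both strands: the MEF2 motif (in Klf2, the 10 capitals in the middle of the window), the E-box CACGTG, and TGACG, the first letters of a cyclic AMP response element. The build used for the array's probe sets is not given in the sources used here, and these coordinates belong to the RefSeq table alone.
Klf2, chr8:72318812-72319061, plus strand: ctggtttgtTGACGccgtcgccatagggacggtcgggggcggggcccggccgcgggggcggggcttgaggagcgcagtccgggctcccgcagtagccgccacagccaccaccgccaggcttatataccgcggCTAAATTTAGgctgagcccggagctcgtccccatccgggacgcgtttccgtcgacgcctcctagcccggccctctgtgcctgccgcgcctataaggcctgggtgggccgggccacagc
Klf4, chr4:55532476-55532725, minus strand: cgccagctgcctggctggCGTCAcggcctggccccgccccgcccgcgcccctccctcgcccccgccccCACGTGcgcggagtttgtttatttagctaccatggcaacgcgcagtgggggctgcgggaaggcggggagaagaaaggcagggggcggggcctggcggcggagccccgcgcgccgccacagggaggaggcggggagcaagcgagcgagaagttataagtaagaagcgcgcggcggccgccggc
Klf6, chr13:5861239-5861488, plus strand: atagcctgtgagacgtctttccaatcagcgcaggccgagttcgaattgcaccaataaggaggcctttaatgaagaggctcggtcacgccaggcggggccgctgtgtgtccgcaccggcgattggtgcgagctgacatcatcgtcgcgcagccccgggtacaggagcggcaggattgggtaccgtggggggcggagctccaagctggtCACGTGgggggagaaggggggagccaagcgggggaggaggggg
Klf9, chr19:23140976-23141225, plus strand: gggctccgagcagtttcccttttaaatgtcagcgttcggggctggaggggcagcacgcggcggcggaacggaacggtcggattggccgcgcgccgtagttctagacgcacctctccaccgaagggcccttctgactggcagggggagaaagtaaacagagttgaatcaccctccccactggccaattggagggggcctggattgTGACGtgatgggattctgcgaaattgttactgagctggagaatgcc

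The MEF2 motif lay 118 to 109 bases before the start of Klf2, in 1 of the 8 member promoters and 2.92% of the 32851 promoters searched, where a gene can have several. An E-box lay in Klf4, 182 to 177 bases before the start, in Klf6, 43 to 38 bases before it, and in Klf11, 214 to 209 bases before it, against 6.02% of all promoters. TGACG lay in Klf2, Klf4 (as its reverse complement CGTCA), Klf9 and Klf13, against 17.8%, and its full form TGACGTCA in 0 of the 8, against 1.55%. The GC box GGGCGG, which KLF and SP proteins bind, lay in 7 of the 8, all but Klf9, against 32.7%, and the letters CACCC in 5 of the 8, against 52%. The SRF-binding CArG box had no match in the 8, against 1.47% of promoters. The AP-1-like motif TGANTCA, searched with any letter in the middle, matched in Klf9 alone, as TGAATCA, against 6.75%. CCAAT matched in 4, Klf6, Klf9, Klf11 and Klf13, against 33.8%. TGACG lies within TGACGTCA, so matches to the longer motif count under both. The member windows held 59.2% to 78.4% G and C, beside a median of 52.4% over all promoters. A match is a run of letters and was not measured as a bound site.

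At 1 h, 3 members were called higher and 2 lower of 10 (limma, Benjamini-Hochberg adjusted p under 0.05), beside 1.01% and 1.88% of all genes, or 2.89% in either direction. The median log2 difference of the members was 0.10, against 0.00 for all genes, with members from -0.36 to 0.85. B/B 1 h replicate 1 had the lowest weight of the 9 arrays, 0.563, and without it 5 members were called. The count of 5 was 3 without control replicate 2, control replicate 3 or B/B 1 h replicate 2, and 6 with quantile normalization. In 8 of the 10 the arrays of the groups did not overlap, 5 higher and 3 lower, where this held for 21.3% of all genes, 9% higher and 12.3% lower. The 3 higher members all belong to the 5 of the activator group, and the 2 lower members to the 4 of the Sin3-binding group. These groups were set beside the calls after the values were seen. The calls of Klf4 and Klf9 were lost in 9 and 3 of their 16 alternatives. Of the Sin3-binding members not called, Klf11 stood at 0.22 and Klf13 at -0.27.

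Klf6, an injury-responsive activator known as a tumour suppressor and an inducer of TGF-beta genes, had the highest difference of the 10 at 1 h, with an interval (0.76 to 0.95, log2) that overlapped that of Klf2 (0.62 to 0.96). Its log2 values were 11.30, 11.33 and 11.38 in control, 12.23, 12.18 and 12.15 at 1 h, and 11.00, 10.96 and 11.01 after washout. The groups did not overlap, and the order was 1 h, control, washout. Klf6 rose 1.81-fold at 1 h, by 0.85 ± 0.042 (log2, SE; adjusted p 5.6e-06), then fell by 1.20 ± 0.042 over washout (adjusted p 7.8e-08), ending at -0.35 against control (95% interval -0.44 to -0.25; adjusted p 1.9e-04).

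Klf2, which keeps endothelial cells and T lymphocytes quiescent, had the widest swing of the 10. It read 7.51, 7.39 and 7.29 on the control arrays, 8.12, 8.13 and 8.31 at 1 h, and 6.17, 6.09 and 6.26 after washout (log2). Each 1 h array lay above every control array, and each washout array lay more than 1 log2 unit below the lowest of them. Klf2 rose 1.73-fold at 1 h, by 0.79 ± 0.075 (log2, SE; adjusted p 5.1e-04), and fell by 2.01 ± 0.075 over washout (adjusted p 1.3e-07), or 4.03-fold. Against control the washout level was 2.34-fold lower, at -1.22 (95% interval -1.39 to -1.05; adjusted p 3.2e-06). Klf2 marks endothelium, whose markers had a summed log2 level of 30.93 to 31.19 in control, 30.93 to 32.11 at 1 h and 31.29 to 32.08 after washout, with Tek and Emcn in the lowest 30% of genes and 0 of the 7 called at 1 h (limma; 2 at unadjusted p under 0.05). After washout 1 of the 7 was called higher, Cdh5, the VE-cadherin gene, at 0.28 against control (adjusted p 0.010) and 0.54 against 1 h (adjusted p 2.1e-04), and 0 were called lower. Of all genes, 2.89% were called at 1 h in either direction. After washout 14.5% were called higher and 11.7% lower than control, and 16.6% and 12% against 1 h. The part of Cdh5 in the Klf2 result was not tested.

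Klf4, a reprogramming factor that also drives epithelial differentiation and restrains smooth muscle genes, showed the same order with smaller steps. Its log2 values were 9.95, 10.01 and 9.95 in control, 10.14, 10.28 and 10.21 at 1 h, and 9.46, 9.37 and 9.43 after washout, and the groups did not overlap. The rise at 1 h was 0.24 ± 0.048 (log2, SE; adjusted p 0.034) and lay close to the threshold. It was lost without any 1 control array, without B/B 1 h replicate 2 or 3 and without washout replicate 1 or 3, with adjusted p up to 0.117. Centring the array medians (0.0608) and fitting only the 2 groups (0.0859) also ended the call, within 0.00388 to 0.117 over its alternatives. The fall over washout, at -0.79 ± 0.048, and the gap to control, at -0.55 (95% interval -0.66 to -0.44; adjusted p 2.6e-05), kept their calls in all 16 alternatives.

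Klf5, which promotes proliferation in intestinal crypts and smooth muscle, differed from control at 1 h by 0.12 (log2, 95% interval 0.02 to 0.21) with an adjusted p of 0.187. Its 1 h arrays, at 9.82 to 9.89, lay above the control arrays, at 9.70 to 9.76, by less than their distance from the washout arrays, at 9.20 to 9.28. The fall of Klf5 over washout was 0.61 ± 0.043 (adjusted p 5.8e-06), to -0.49 against control (adjusted p 2.6e-05). Klf7, known for its part in axon growth, was the activator-group member that ended above control. It read 7.82 to 7.90 in control, 7.87 to 7.96 at 1 h and 8.09 to 8.21 after washout (log2), so that control and 1 h overlapped and washout stood apart. Its difference was 0.08 at 1 h (95% interval -0.03 to 0.19; adjusted p 0.427) and 0.30 after washout (adjusted p 0.0013). Klf7 was the 1 member with more than 1 probe set: the other read 3.12 to 3.31 on all arrays and gave a washout difference of 0.03 (adjusted p 0.699), and the average of both gave 0.17.

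Klf10, which TGF-beta induces early and which represses its inhibitor Smad7, had the largest gap to control after washout of the 10 members. It read 9.81, 9.88 and 9.89 in control, 9.51, 9.50 and 9.50 at 1 h, and 7.91, 7.86 and 8.02 after washout (log2). The groups did not overlap and stepped down in the order control, 1 h, washout. Klf10 fell by 0.36 ± 0.050 at 1 h (adjusted p 0.0053) and by a further 1.57 ± 0.050 over washout (adjusted p 5.1e-08), to -1.93 against control (95% interval -2.04 to -1.82; adjusted p 1.9e-08), or 3.81-fold. Smad7 itself fell by 0.50 at 1 h (adjusted p 8.4e-04) and rose by 0.65 over washout (adjusted p 1.2e-05), to a difference from control of 0.15 that did not pass (adjusted p 0.0564).

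Klf9, a target of glucocorticoid and thyroid hormone receptors that also cycles with the clock, moved in the same direction as Klf10 with smaller steps. Its log2 values were 9.93, 9.97 and 9.96 in control, 9.75, 9.70 and 9.70 at 1 h, and 9.05, 9.01 and 9.08 after washout, with no overlap between groups. The fall at 1 h was 0.23 ± 0.041 (adjusted p 0.016), and the call was lost without control replicate 2 (0.0627), control replicate 3 (0.0624) or the 1 h array of replicate 2 (0.0567). Its alternatives gave 0.00124 to 0.0627. The further fall of 0.67 ± 0.041 over washout (adjusted p 2.5e-06) brought Klf9 to 1.87-fold below control, at -0.90 (95% interval -0.996 to -0.813; adjusted p 5.1e-07).

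Klf11, a relative of Klf10 that TGF-beta also induces, lay nearer in its values to Klf4 and Klf5 than to the other Sin3-binding members. At 1 h its arrays read 7.65 to 7.83 against 7.49 to 7.60 in control, and the difference of 0.22 (log2, 95% interval 0.08 to 0.35) had an adjusted p of 0.0895, or 0.0188 with quantile normalization. Over washout Klf11 fell by 0.67 ± 0.058 (adjusted p 2.2e-05), to -0.45 against control (adjusted p 2.9e-04). Among the members, the distance between Klf4 and Klf11 over the 9 arrays, each gene taken relative to its control mean, was the smallest, at 0.243 log2 units, followed by 0.247 between Klf5 and Klf11 and 0.260 between Klf4 and Klf5, where Klf9 and Klf11 lay 1.12 apart. Such distances depend on the size of the steps as well as their order. They were taken up after the values were seen and carry no test.

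Klf13, which activates chemokine expression in T lymphocytes, did not pass at 1 h and rose over washout. Its arrays read 6.44 to 6.59 in control, 6.12 to 6.37 at 1 h and 6.53 to 6.63 after washout (log2), with washout overlapping control. The difference at 1 h was -0.27 (95% interval -0.43 to -0.11; adjusted p 0.0886, and 0.0282 without B/B 1 h replicate 3). From 1 h to washout it rose by 0.37 ± 0.073 (adjusted p 0.0034), and its difference from control was then 0.10 (95% interval -0.06 to 0.27; adjusted p 0.39). Klf3, the CtBP-binding repressor of the set, differed by -0.03 at 1 h (95% interval -0.14 to 0.07; adjusted p 0.743) and rose over washout by 0.29 ± 0.048 (adjusted p 0.0011). Its arrays read 9.44 to 9.49, 9.37 to 9.49 and 9.67 to 9.77 in the 3 groups, so that control and 1 h overlapped and washout lay above both, 0.26 above control (adjusted p 0.0026).

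**Figure D2:**
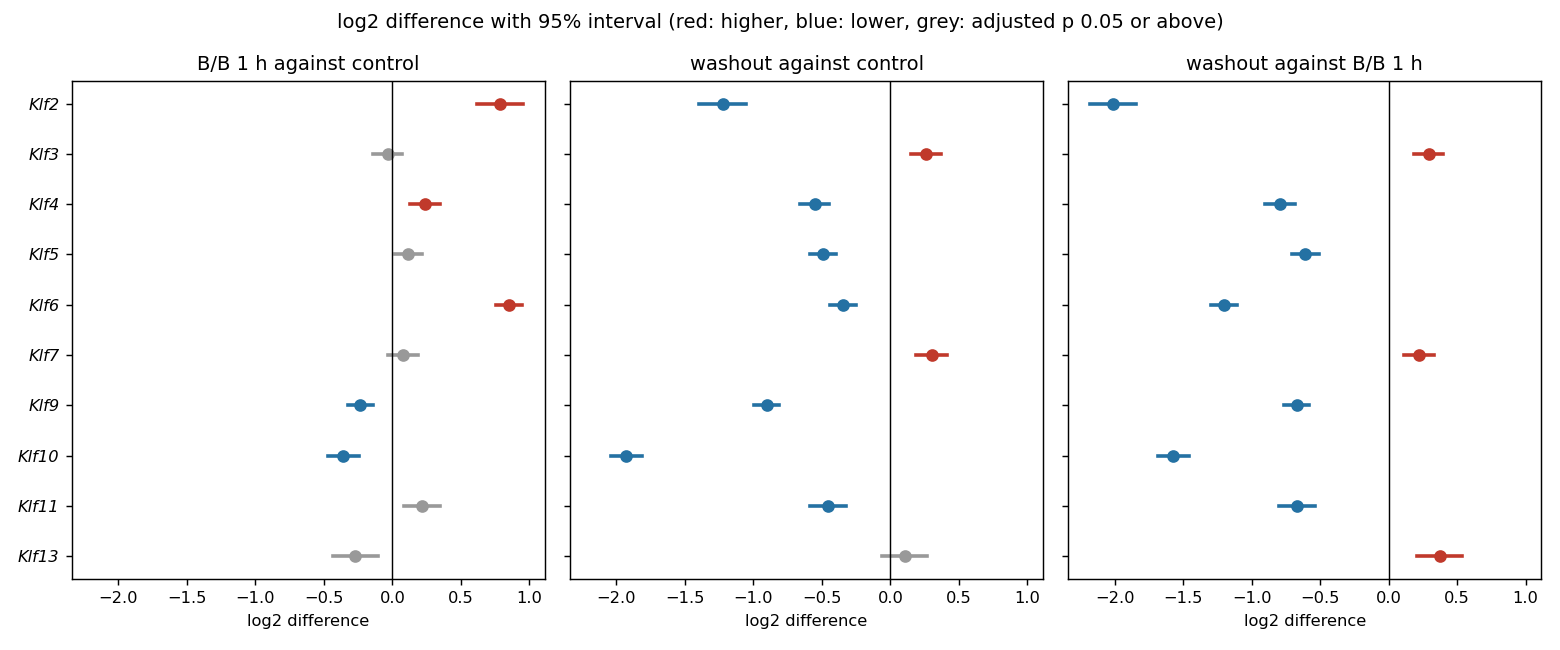
Log2 difference of each KLF gene (points) with its 95% interval (lines) in the 3 comparisons, with colour for the direction of genes past adjusted p 0.05 and grey for the others. At 1 h the members lie between -0.36 and 0.85, and over washout Klf2, Klf10 and Klf6 lie farthest below 0, at -2.01, -1.57 and -1.20.

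After washout, 2 members were called higher than control and 7 lower, beside 14.5% and 11.7% of all genes and 26.2% in either direction. Their median log2 difference was -0.47, against 0.00 for all genes, and the arrays of the groups did not overlap in 9 of the 10, 2 higher and 7 lower, beside 38% of all genes, 20.2% higher and 17.8% lower. Over washout, from 1 h on, 3 rose and 7 fell (16.6% and 12% of all genes, 28.6% in either direction), with a median of -0.67 against -0.02 for all genes. The arrays of these groups did not overlap in any of the 10, 3 higher and 7 lower, beside 39.6% of all genes, 21.1% higher and 18.4% lower. By group, the activator members stood at 1 higher and 4 lower of 5, and the Sin3-binding members at 0 higher and 3 lower of 4 against control. The comparisons share arrays, so that the values are given side by side. All shares of genes given here include genes of low signal, while the members lay at percentiles 61.5 to 99.1 of mean value. With the lowest 30% of genes left out, more genes were called out of fewer tested: 952 at 1 h, 6078 after washout and 6598 over washout. The shares in either direction set beside the members are therefore below those among the genes left. The members were not compared with genes of like signal.

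The other KLF and SP genes, which bind the same kinds of sequence, were counted beside them. Of 15 measured, 0 higher and 1 lower passed at 1 h, 2 higher and 2 lower after washout against control, and 0 higher and 1 lower over washout, with medians of 0.03, -0.03 and -0.03, where all genes had 1.01% higher and 1.88% lower, then 14.5% and 11.7%, then 16.6% and 12%. Whether their share differs from that of the members was not tested, and the members were picked with their values known. Signal also differed between the sets. Klf1, Klf8, Klf12, Klf14, Klf15, Klf17, Sp5, Sp6, Sp7, Sp8 and Sp9 had control means of 3.58 to 5.59 (log2). The lowest member, Klf13, had a control mean of 6.49. The part of low signal in these counts was not tested. Klf16, a Sin3-binding relative of Klf9 and Klf13, was the gene called in all 3 comparisons. It read 9.59 to 9.67 in control, 9.31 to 9.36 at 1 h and 8.71 to 8.86 after washout (log2), 3 ranges that did not overlap. Klf16 fell by 0.31 ± 0.049 at 1 h (adjusted p 0.012; the call was lost without control replicate 3) and stood at -0.87 against control after washout (adjusted p 2.1e-06), the same order of groups as Klf9 and Klf10. Klf12, a CtBP-binding repressor, stood at -0.32 (adjusted p 0.017) and Sp4, a neuronal SP factor, at 0.29 (adjusted p 0.032) after washout. The count of 4 after washout was 1 without control replicate 3 and 2 without washout replicate 3.

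Genes known to act on or with KLF proteins were counted in the same fit. The shares of all genes to set beside the counts of these lists, and of the clock and glucocorticoid lists, are 1.01% higher and 1.88% lower at 1 h, 14.5% and 11.7% after washout against control, and 16.6% and 12% over washout, and the medians of all genes are 0.00, 0.00 and -0.02. Upstream, the ERK5 cascade activates MEF2 factors, which switch on Klf2 and Klf4. Of 10 such kinase, MEF2 and SRF-class genes, 0 passed at 1 h (limma; 3 at unadjusted p under 0.05), and 5 were higher and 3 lower after washout against control. The lower ones were the MEF2 genes Mef2c at -0.81 ± 0.048 and Mef2d at -0.78 ± 0.042 (log2, SE; adjusted p 2.4e-06 and 1.5e-06) and Srf, the serum response factor gene, at -0.25. Mef2a, another MEF2 gene, went the other way, at 0.20 (adjusted p 0.0070). The kinase gene Map3k3 stood at 0.30 (adjusted p 6.8e-04). Of 6 ubiquitin ligase genes whose products are described as degrading KLF proteins, 0 higher and 1 lower passed at 1 h, 4 higher and 0 lower after washout, and 6 higher and 0 lower over washout, with medians of -0.19, 0.23 and 0.45. Smurf1 fell by 0.25 at 1 h (adjusted p 0.023) and stood 0.29 above control after washout (adjusted p 0.0012), and Vhl and Fbxw7 rose by 0.46 each over washout (adjusted p 9.3e-04 and 6.3e-04).

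Of 11 corepressor and coactivator genes, 0 passed at 1 h (limma; 1 at unadjusted p under 0.05), and 5 were higher and 1 lower after washout, with Sin3b at 0.44 (adjusted p 6.9e-05), the acetyltransferase gene Ep300 at 0.41 (1.9e-04 after adjustment) and Kat2b, another acetyltransferase gene, at -0.33 (0.013 after adjustment). Of 16 genes described elsewhere as KLF targets, 0 higher and 1 lower, Smad7, passed at 1 h, and 6 higher and 2 lower after washout. The lower ones were the contractile genes Tagln at -0.70 (adjusted p 1.3e-05) and Acta2 at -0.67 (adjusted p 2.6e-06). Among the higher ones was S1pr1, a sphingosine phosphate receptor gene that KLF2 activates in lymphocytes, at 0.58 (adjusted p 3.8e-05), while Klf2 itself was lower. The part of Klf2 or any other member in the changes of these targets was not tested.

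Klf9 and Klf10 are known as clock-controlled genes, and clock genes were counted beside them. Of 16 measured, 0 higher and 3 lower passed at 1 h, and 2 higher and 12 lower after washout, with a median of -0.57 against 0.00 for all genes. Nr1d1, Bhlhe40 and Per1, repressors of the clock, stood at -2.22, -1.94 and -1.90 against control after washout (limma, adjusted p up to 4.2e-08). Arntl, their activator, stood at 1.03 against control after washout (adjusted p 1.4e-05). At 1 h Arntl was below control, at -0.50 (adjusted p 0.011), and from there it rose by 1.53 over washout (adjusted p 1.1e-06). Of 8 glucocorticoid-induced genes, to which Klf9 is often joined, 2 higher and 0 lower passed at 1 h and 2 higher and 3 lower after washout. Per1 belongs to both lists. Besides Per1, the lower ones after washout were Dusp1 at -0.31 (adjusted p 8.4e-04) and Fkbp5 at -0.23 (adjusted p 0.013). The higher ones were Tsc22d3, a glucocorticoid-induced anti-inflammatory gene, at 0.37 (adjusted p 0.0061) and Sgk1 at 0.23 (adjusted p 0.0028). The part of glucocorticoid signalling in the Klf9 result was not tested.

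**Figure D3:**
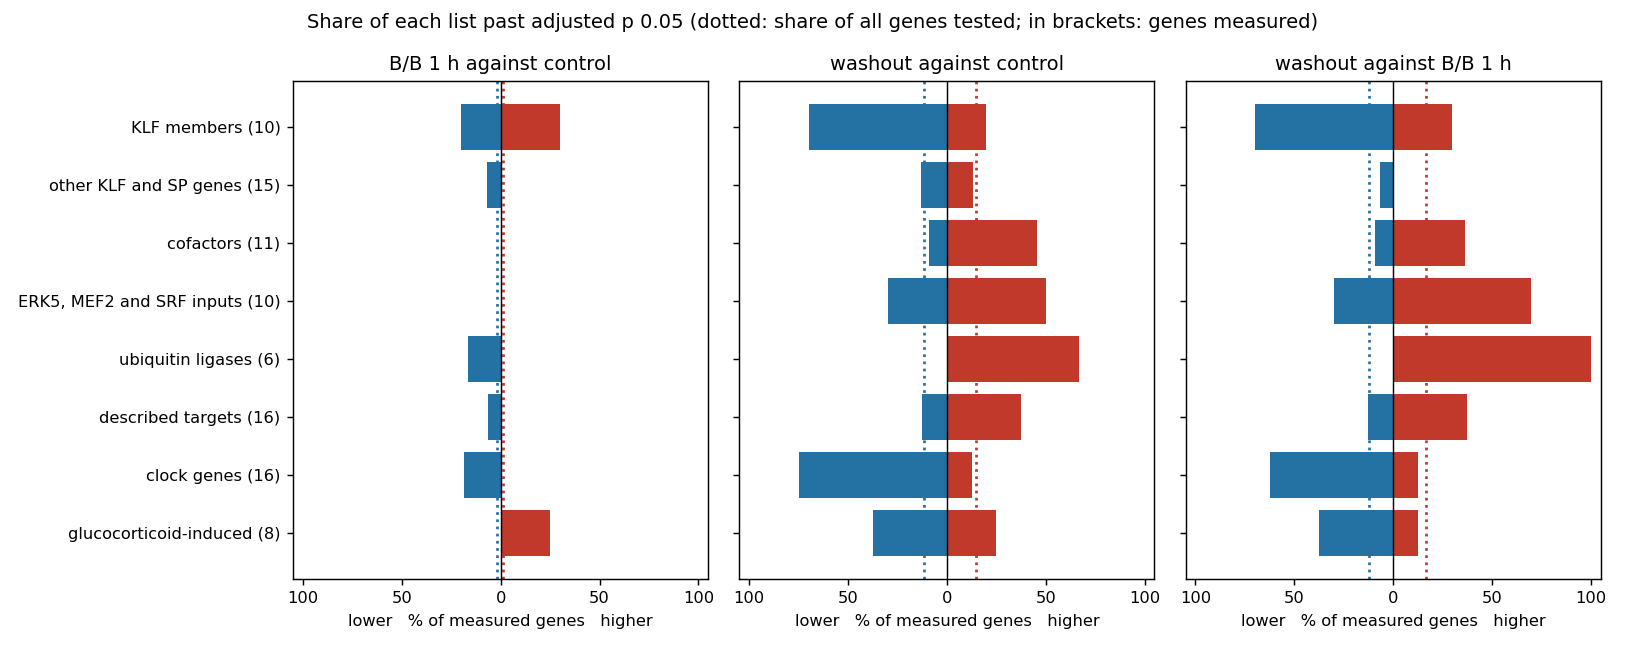
Share of the measured genes of each list (bars, percent) called higher (right, red) or lower (left, blue) in the 3 comparisons, with dotted lines at the share of all genes tested and the number measured in brackets. At 1 h the KLF members have 3 higher and 2 lower of 10, and the cofactor and ERK5, MEF2 and SRF lists have none.

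The 3 members whose group means ranged over at least 1 log2 unit were set beside the genes nearest to them in pattern, by Euclidean distance over the 9 arrays among 13854 genes outside the lowest 30%. Nearest to Klf2 were Junb, an AP-1 subunit gene, at a distance of 0.379, Rhob, a small GTPase gene, at 0.468, and Nfkbia, the IkB-alpha gene, at 0.567. Junb stood at 0.65 at 1 h and -1.22 after washout against control, and Klf2 at 0.79 and -1.22. Nearest to Klf6 were Dusp1, a MAP kinase phosphatase gene, at 0.225, H2bc22, a histone H2B gene, at 0.436, and Nr4a2, an orphan nuclear receptor gene, at 0.453. Dusp1 stood at 0.96 and -0.31, and Klf6 at 0.85 and -0.35. Nearest to Klf10 were Slc1a3, a glutamate transporter gene, at 0.393, Per1 at 0.454 and Myl9, a myosin light chain gene, at 0.557. These are the closest of many genes over 9 arrays in 3 groups and carry no test.

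**Figure D4:**
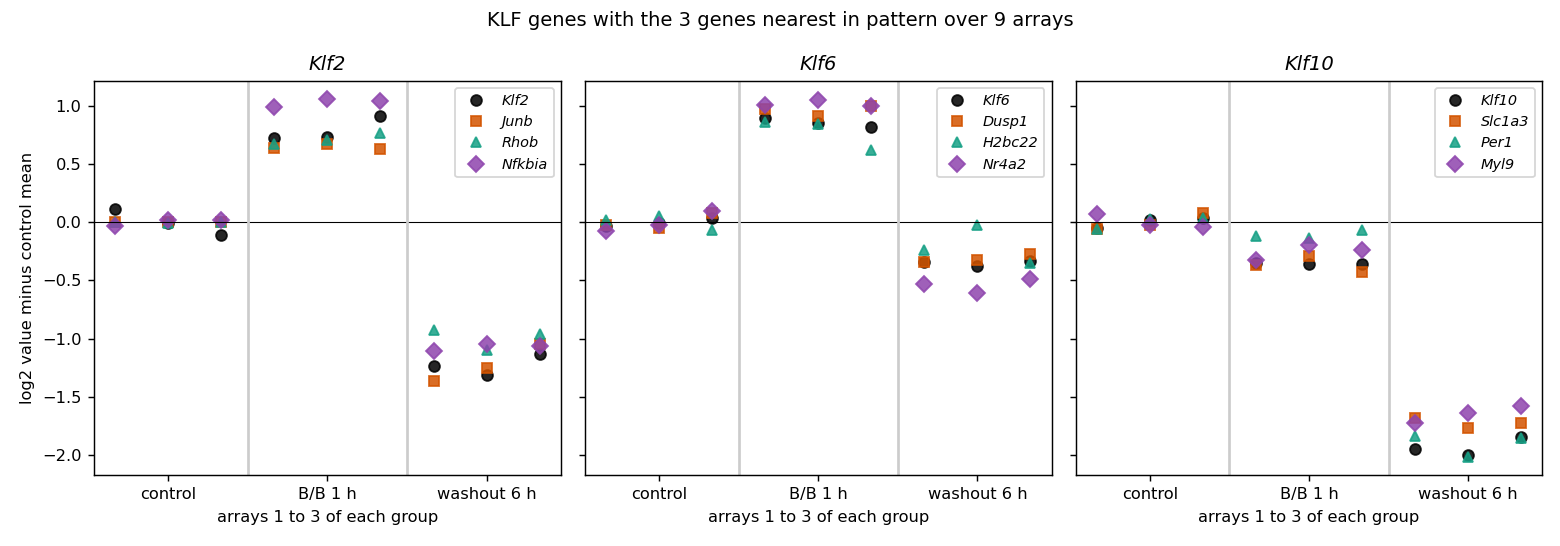
Log2 value minus the gene's control mean (y axis) on each of the 9 arrays (x axis) for Klf2, Klf6 and Klf10 (black circles) and the 3 genes nearest to each (coloured symbols). Junb follows Klf2 to -1.22 after washout, Dusp1 follows Klf6 above and below control, and Per1 follows Klf10 to -1.90.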

How the data were processed

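The values were the authors' deposited log2 probe set summaries of total RNA, extracted with Trizol and labelled as biotinylated cRNA, per the labels' protocols. The submitters' processing notes name Partek 6.6. The summary and normalization methods are not given in the sources used here. Over the arrays the 25th percentile was 3.48 to 3.52 and the 75th 6.92 to 7.04, so the values were taken as already normalized between them, and base 2 was inferred from the range of 1.80 to 13.2, which limits every fold given. Detection calls were not used here.

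Among 41345 probe sets, 23521 carried 1 gene symbol, and 1814 with several and 16010 with none were not used here. Keeping 1 probe set per gene gave 22180 genes to test. Only the adjusted p of the second Klf7 probe set came from a fit of all 23521. Groups, taken from the treatment labels with replicates numbered in accession order, were compared with limma 3.58.1 (R 4.3.3) in 1 model of 3 group means over 9 arrays (6 residual and 3.38 prior degrees of freedom), adjusted over 22180 genes. The number of arrays limits the precision. The code was tested on simulated data. Members and lists were chosen with earlier results of these data known.

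Named were all members, up to 3 called genes of each list in each comparison with the largest differences, and the 3 genes nearest in pattern to members ranging over 1 log2 unit, leaving out predicted genes. Other genes and groupings named, and the subgroups and distances among members, were chosen after their values were seen. Promoters were searched 250 bases before the start. Alternatives were quantile normalization, centred medians, the lowest 30% of genes left out, probe sets averaged, a variance trend, array weights (statmod 1.5.0), only the 2 groups compared, and each array left out.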

Additional observations from a re-analysis of the deposited data

How the results depend on the processing

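All 10 KLF genes differed among the 3 groups in every alternative that gives an F-test, and the counts of 9 members called after washout and of 10 over washout stayed the same in all alternatives, including each array left out (9 to 9 and 10 to 10). No member changed direction in any of its 16 alternatives, and of 480 values for single members 466 kept their side of the threshold, 12 lost it, for Klf4 and Klf9 at 1 h, and 2 gained it, for Klf11 and Klf13 at 1 h. The 5 members called at 1 h were 3 to 5 with 1 array left out, and 3 without control replicate 2, control replicate 3 or B/B 1 h replicate 2. The 642 genes called at 1 h were 1228 with a variance trend, 359 with only the 2 groups compared, and 323 to 691 with 1 array left out. With 1 array left out, the 5814 and 6345 genes called after and over washout were 5013 to 5903 and 5505 to 6145. Of the other KLF and SP genes, the 1 called at 1 h was 0 to 1, the 4 after washout were 1 to 4, and the 1 over washout was 1 to 3 with 1 array left out. That last count was also 2 with array medians centred, with the lowest 30% of genes left out, with only the 2 groups compared and without control replicate 2. Of genes called at 1 h, 34.9% were higher, and 48% with quantile normalization. The causes were not tested. No paired analysis was possible because the labels carry no replicate numbers.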

Other observations

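Some arrays held exactly the same value for a gene to every deposited decimal. Klf9 and Klf10 each had a pair of B/B 1 h arrays at 1 value, and Klf13 a pair of control arrays, while the other 7 members had none. The SD of Klf10 at 1 h, 0.0034 (log2, n = 3), rests on such a pair. Among all genes, 29.2% had arrays of 1 group at the same value and 4.25% had a whole group at 1 value. Sp6, an SP factor of teeth and limbs, had all 3 control arrays at 5.34, and Sp8 and Sp9, SP factors of limb and brain development, all 3 B/B 1 h arrays at 3.51 and 4.91. The fit moderates each gene's spread towards that of all genes, and the part of these ties in the calls was not tested.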
